A study of Mus musculus with 8 samples.

Results

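Metallothioneins and zinc transporters were represented by 8 genes of the 54532 in the deposited table of liver expression. They were the metallothioneins Mt1 and Mt2, the zinc sensing factor Mtf1, the importers Slc39a4, Slc39a10 and Slc39a14, and the exporters Slc30a1 and Slc30a10. The genes were taken by name. The names were selected on their FPKM in these same 8 livers, with the fold change between the groups already known. The fold changes of the 8 genes are therefore a description and carry no p-value. The livers came from 4 METTL3-HKD animals and from 4 METTL3-Flox animals. METTL3-HKD mice had the genotype METTL3 flox/-; Alb-iCre, in which the recombinase is driven by the albumin promoter and so acts in hepatocytes, and METTL3 is the enzyme that writes N6-methyladenosine (m6A) on RNA. The study names them heterozygous, so they are a knockdown and not a knockout. The METTL3-Flox controls were littermates of the genotype METTL3 flox/flox. Both groups were on a C57BL/6 background, and all 8 livers had been through partial warm ischemia for 1 h and reperfusion for 6 h. No sham-operated liver was among the samples, so the effect of ischemia itself on these genes was not measured here. The ages and sexes of these 8 mice are not given in the labels.

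Metallothioneins are small cysteine-rich proteins of the cytosol that hold zinc, copper and cadmium, and the liver makes them in large amounts under stress. MTF-1, the product of Mtf1, senses free zinc and binds metal response elements in DNA, from which it activates metallothionein genes and the exporter gene Slc30a1. Transporters of the SLC39 (ZIP) family move zinc into the cytosol, and those of the SLC30 (ZnT) family move it out. Some members carry other metals as well: the products of Slc39a14 and Slc39a8 also take up manganese, and that of Slc30a10 exports it.

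The metallothionein genes are shown by their reading frames, since the cysteine codons are what the proteins are known for. The coding sequences of Mt1-201 and Mt2-201 in the GENCODE annotation of GRCm38 have 186 bases each, and the codons TGC and TGT, which encode cysteine, are in capitals.
Mt1 coding sequence: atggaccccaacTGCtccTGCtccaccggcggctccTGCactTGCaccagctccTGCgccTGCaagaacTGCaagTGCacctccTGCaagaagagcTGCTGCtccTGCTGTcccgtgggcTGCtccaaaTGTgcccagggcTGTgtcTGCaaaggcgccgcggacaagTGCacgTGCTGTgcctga
Mt2 coding sequence: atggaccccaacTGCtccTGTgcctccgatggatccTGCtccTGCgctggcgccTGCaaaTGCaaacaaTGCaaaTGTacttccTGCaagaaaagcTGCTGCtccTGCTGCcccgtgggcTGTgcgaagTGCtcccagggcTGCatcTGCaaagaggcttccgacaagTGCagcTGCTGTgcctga
Each frame had 61 codons before its stop, of which 20 (32.8%) were cysteine codons, and all 20 stood at the same places in both genes. The frames were identical at 148 of 186 bases (79.6%), with a longest identical run of 20 bases.

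Upstream sequences were matched in the RefSeq promoter table of GRCm38.p6 for 6 of the 8 genes, in 7 entries, and not for Slc39a4 and Slc39a14. Each entry runs from 250 bases before to 50 bases after an annotated start. The core of the metal response element was searched as TGCACNC or TGCGCNC on both strands, where N is any base and overlapping matches count separately. Of 32851 RefSeq promoters, 25.7% held at least 1 match, 7.11% at least 2, 1.97% at least 3 and 0.517% at least 4. The windows held 4 matches in Mt2, 3 in Mt1, 3 in Slc30a10, 2 in Slc30a1 and 0 in Mtf1 and in both entries of Slc39a10. No window of Mtf1 or Slc39a10 covers the first annotated base of its gene. The stretches directly before those bases were not searched, so the 0 does not describe them. Before the start itself lay 3 of the 4 matches of Mt2, 1 of the 3 of Mt1, 3 of the 3 of Slc30a10 and 1 of the 2 of Slc30a1. The sequences printed here are the parts of these windows that lie before the start and outside the annotated exons of the gene, with matches to the metal response element core in capitals.
Mt1, chr8:94178839-94179081, plus strand: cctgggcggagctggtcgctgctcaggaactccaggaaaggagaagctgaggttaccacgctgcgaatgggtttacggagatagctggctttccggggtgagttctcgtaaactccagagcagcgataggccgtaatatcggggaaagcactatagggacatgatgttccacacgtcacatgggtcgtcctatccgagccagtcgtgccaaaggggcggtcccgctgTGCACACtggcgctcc
Mt2, chr8:94172368-94172617, plus strand: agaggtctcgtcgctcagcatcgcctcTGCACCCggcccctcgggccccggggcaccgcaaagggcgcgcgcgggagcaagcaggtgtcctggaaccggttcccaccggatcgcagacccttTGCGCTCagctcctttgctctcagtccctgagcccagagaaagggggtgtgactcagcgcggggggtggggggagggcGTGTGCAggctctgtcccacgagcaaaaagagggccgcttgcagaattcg
Slc30a1, chr1:191906531-191906766, plus strand: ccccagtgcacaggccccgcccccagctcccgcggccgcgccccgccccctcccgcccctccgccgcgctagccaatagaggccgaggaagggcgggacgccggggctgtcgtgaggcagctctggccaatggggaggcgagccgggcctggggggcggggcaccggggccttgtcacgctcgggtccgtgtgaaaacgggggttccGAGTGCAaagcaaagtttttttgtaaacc
Slc30a10, chr1:185454598-185454847, plus strand: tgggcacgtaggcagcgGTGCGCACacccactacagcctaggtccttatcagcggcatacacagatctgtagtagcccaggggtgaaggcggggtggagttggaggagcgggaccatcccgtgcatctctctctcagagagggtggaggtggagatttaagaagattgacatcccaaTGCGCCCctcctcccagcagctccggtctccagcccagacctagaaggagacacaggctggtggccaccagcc
In Slc30a10, 2 of the 3 matches overlap on opposite strands and form the run of capitals nearest to the left end. GENCODE also places starts of the metallothionein genes further downstream. The 1085-base transcript of Mt1 starts 159 bases after the first annotated base of Mt1, and the 250 bases before it held 5 matches. The 388-base transcript of Mt2 starts 196 bases after the first annotated base of Mt2, and the 250 bases before it held 4. These stretches overlap the RefSeq windows, so some matches are counted in both. No share over other genes was computed for such downstream starts. The 30 bases with the most matches before each of these starts held 2, which lie inside the first exon of a transcript that starts further upstream.
Mt1 site pair, chr8:94179088-94179117, plus strand: ctcTGCACTCcgcccgaaaagTGCGCTCgg
Mt2 site pair, chr8:94172673-94172702, plus strand: ggcGTGTGCAggcggcgggggcGCGTGCAt
A match is a stretch of letters and was not tested as a binding site.

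A STAT site (TTCNNNGAA, found in 8.30% of the RefSeq promoters) and the core of the antioxidant response element (TGACNNNGC, found in 12.4%) were searched in the same way. The windows of Mt2 and Slc30a1 each held 1 match to the antioxidant response element core, beginning 79 bases before the start of Mt2 and 82 bases before that of Slc30a1. One STAT match was found, 82 bases before the start in the second entry of Slc39a10, and it is in capitals here.
Slc39a10, chr1:46925777-46926026, minus strand: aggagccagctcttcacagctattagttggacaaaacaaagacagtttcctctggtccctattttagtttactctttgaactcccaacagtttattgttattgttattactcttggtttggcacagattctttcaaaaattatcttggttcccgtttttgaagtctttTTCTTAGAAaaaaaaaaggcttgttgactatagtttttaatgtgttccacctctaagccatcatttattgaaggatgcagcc
That start lies upstream of the whole span the deposited table gives for Slc39a10, so an exon there would not have been counted. The first entry of Slc39a10 lies inside an annotated exon of the gene and is not printed.

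**Figure D1:**
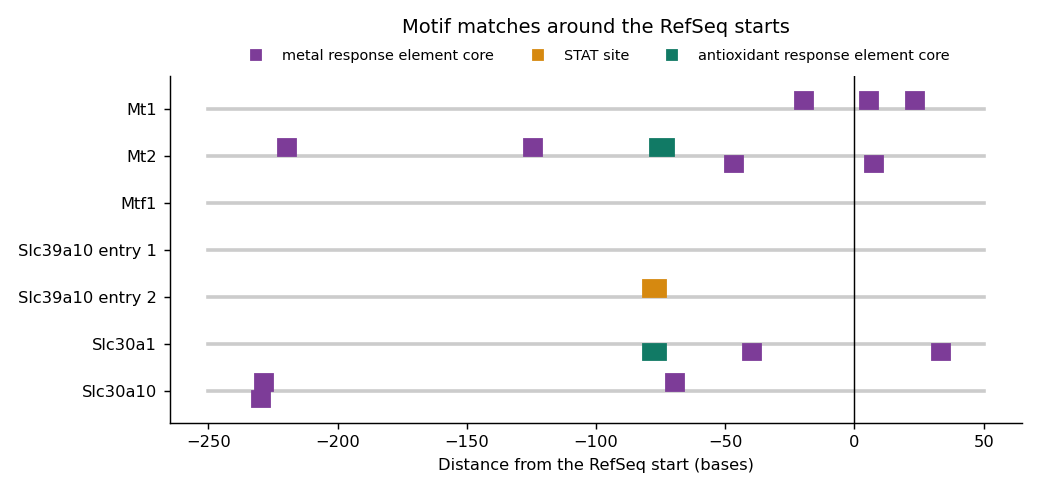
Matches to the 3 motifs in the 7 RefSeq windows of the 6 matched genes, by distance in bases from the RefSeq start (vertical line); boxes above a grey line are on the strand of the gene and boxes below it on the other strand. Mt2 held 4 matches to the metal response element core, Mt1 and Slc30a10 held 3 each, and Mtf1 and Slc39a10 held 0. The windows of Mtf1 and Slc39a10 do not cover the first annotated base of these genes.

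The libraries had between 15861245 and 18434488 reads on genes, rebuilt from the deposited values. Expression is given in FPKM (fragments per kilobase of gene, scaled to library size), so that levels of different genes can be compared per length. For the 8 genes the deposited length is that of all annotated exons together, which can exceed the length of a single transcript. Mettl3, the targeted gene, was at 1.56, 1.39, 1.17 and 1.20 FPKM across METTL3-HKD livers 1 to 4 and at 1.84, 1.16, 1.45 and 1.54 FPKM across METTL3-Flox livers 1 to 4, for a log2 fold change of −0.16 (SE 0.17, adjusted p = 0.556, limma). Its groups overlapped. The gene value counts all exons in all cell types, and the deletion removes 1 exon in hepatocytes, so this level is a weak check of the labels. All 9 hepatocyte markers had a negative log2 fold change, with a median of −0.36 against −0.00 for all tested genes. Marker values are given here only as deposited. When values were instead scaled to the reads on genes, the median of all tested genes was 0.20, so the smaller marker changes depend on the scaling. Alb, at −0.03, changed least and stood between 15090 and 22088 FPKM in all 8 livers. By adjusted p, 1 of the 9 (Hnf4a) was lower in METTL3-HKD livers. The counts of markers in this paragraph stand beside 9.05% of all tested genes higher and 6.63% lower by adjusted p. All 8 neutrophil markers were higher in METTL3-HKD livers, with summed levels of 333 to 1630 FPKM against 13.1 to 44.9 FPKM. Of 7 macrophage and Kupffer cell markers, 4 were lower, with summed levels of 69.8 to 153 FPKM against 155 to 365 FPKM. Of 5 tested cholangiocyte markers 4 were higher, with sums of 119 to 369 FPKM against 52.5 to 77.6 FPKM. Most of the cholangiocyte sum was Spp1 alone, at 109 to 355 FPKM against 46.4 to 73.5 FPKM. Skeletal muscle transcripts were found in METTL3-HKD livers 1 and 3, in which Acta1 reached 37.4 and 61.8 FPKM, and it was at 0 to 0.0428 FPKM in the other 6 livers. The 4 muscle markers summed to 0.525 to 85.1 FPKM in METTL3-HKD livers and to 0.583 to 0.994 FPKM in METTL3-Flox livers, and 0 of them passed the test. In whole liver, fewer cells of a type and less RNA per cell cannot be told apart, and what these cell types contributed to the values below was not tested.

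All 8 genes had a mean over 0.1 FPKM and were among the 16645 genes tested. Because the 8 were selected on these values, no test result is given for them. A call needed a log2 fold change at or beyond 1 together with an adjusted p below 0.05. Of all tested genes, 4.7% were called higher and 1.52% lower. On the adjusted p alone, 9.05% of all tested genes were higher and 6.63% lower. The ranges of the groups did not overlap in 1 member (Slc39a10, higher) and in 0 lower members, beside 12.7% and 9.95% of tested genes. The median log2 fold change of the 8 was −0.09, against −0.00 for all tested genes, and 4 of the 8 were positive. These members were picked knowing this contrast, so nothing is read from the counts.

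**Figure D2:**
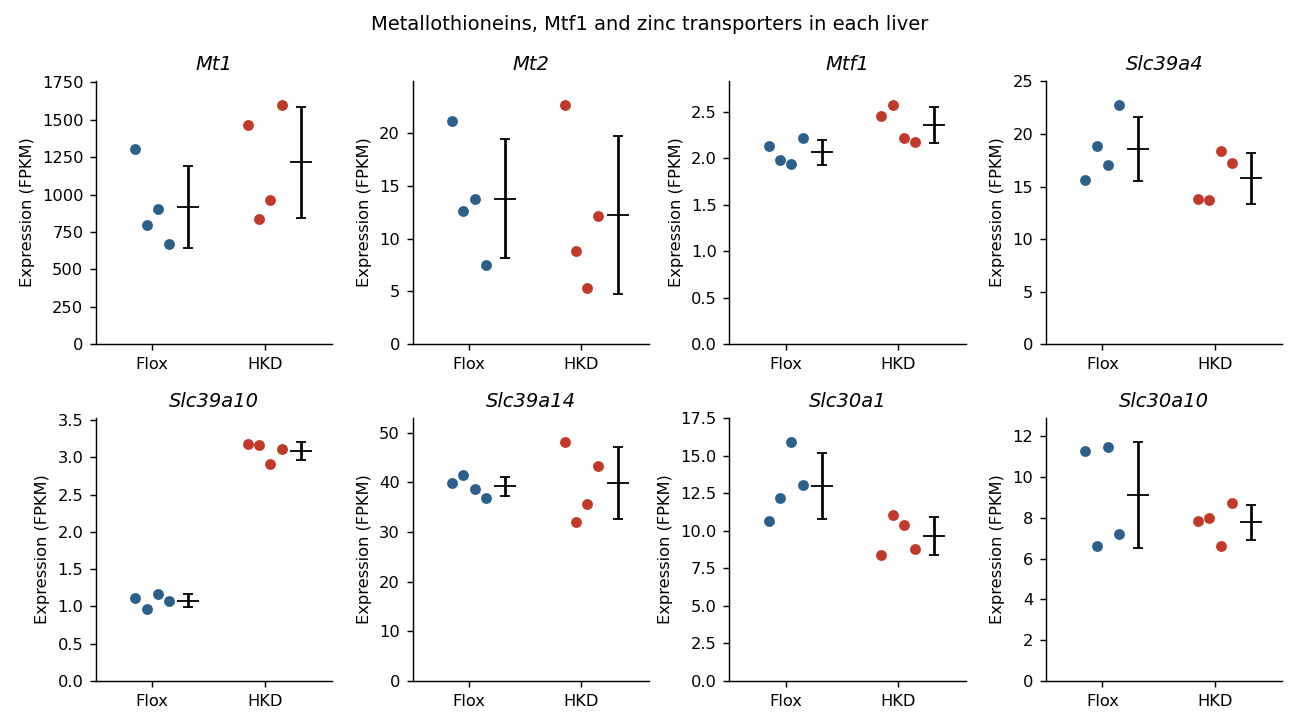
FPKM of the 8 genes in each of 4 METTL3-Flox (Flox, blue) and 4 METTL3-HKD (HKD, red) livers, 1 point a liver in the order 1 to 4 from left to right, with the mean and SD in black beside each group; each panel has its own axis from 0. The groups are apart in Slc39a10 and overlap in the other 7 genes.

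Mt1 was by far the most abundant of the 8 genes, and its groups overlapped. Mt1 (ENSMUSG00000031765), on the plus strand of chromosome 8 of GRCm38 from 94179082 to 94180327, was at 1465, 839, 962 and 1599 FPKM across METTL3-HKD livers 1 to 4 and at 1302, 796, 902 and 668 FPKM across METTL3-Flox livers 1 to 4. METTL3-HKD livers 1 and 4 and METTL3-Flox liver 1 were the high ones. The mean was 1216 ± 372 FPKM (SD, n = 4) in METTL3-HKD livers and 917 ± 274 FPKM (SD, n = 4) in METTL3-Flox livers. The log2 fold change was 0.40 (SE 0.27), or 0.62 when values were scaled to the reads on genes. The highest liver had 1.91 times the level of the lowest within the METTL3-HKD group and 1.95 times within the METTL3-Flox group, so the spread inside each group exceeded the ratio of the means, 1.33. Between 13391 and 37021 reads fell on Mt1, which was 0.0839% to 0.213% of all reads on genes. By FPKM it ranked between 30 and 62 among all genes in METTL3-HKD livers and between 62 and 73 in METTL3-Flox livers. The FPKM and the rank rest on a deposited length of 1246 bases, the whole span of Mt1, while Mt1-201 has 549 bases.

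Mt2, the neighbouring metallothionein gene, was listed at a far lower level. Mt2 (ENSMUSG00000031762), on the plus strand of chromosome 8 from 94172664 to 94173568, was at 22.7, 8.83, 5.37 and 12.2 FPKM across METTL3-HKD livers 1 to 4 and at 21.2, 12.6, 13.8 and 7.50 FPKM across METTL3-Flox livers 1 to 4. Liver 1 of either group was the highest, and the groups overlapped. The group means, given for METTL3-HKD and then METTL3-Flox here and for the genes that follow, were 12.3 ± 7.47 and 13.8 ± 5.64 FPKM (SD, n = 4 livers each), with a log2 fold change of −0.27 (SE 0.44), which turned to 0.06 in 1 of 16 alternatives, the one that left out METTL3-HKD liver 3. With values scaled to the reads on genes, the log2 fold change of Mt2 was −0.05. Only 57 to 268 reads fell on the gene. Of its 588 exon bases, 432 (73.5%) are shared with Gm45774 on the opposite strand, a gene listed at a mean of 0.518 FPKM. The sources used here do not say whether reads were counted by strand or how reads in shared bases were treated, so the level of Mt2 is uncertain.

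The ratio of Mt1 to Mt2 FPKM was 64.6, 95.0, 179 and 131 in METTL3-HKD livers 1 to 4 and 61.5, 63.1, 65.6 and 89.0 in METTL3-Flox livers 1 to 4. The ratio lay within a narrower range in the METTL3-Flox livers than in the METTL3-HKD livers, and the ranges overlapped. Its mean was 118 ± 49.3 (SD, n = 4) in METTL3-HKD livers and 69.8 ± 12.9 (SD, n = 4) in METTL3-Flox livers. The ratio carries the limit given for the level of Mt2. It also rests on the deposited lengths, 1246 bases for Mt1 and 588 for Mt2, against 549 and 511 in Mt1-201 and Mt2-201.

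**Figure D3:**
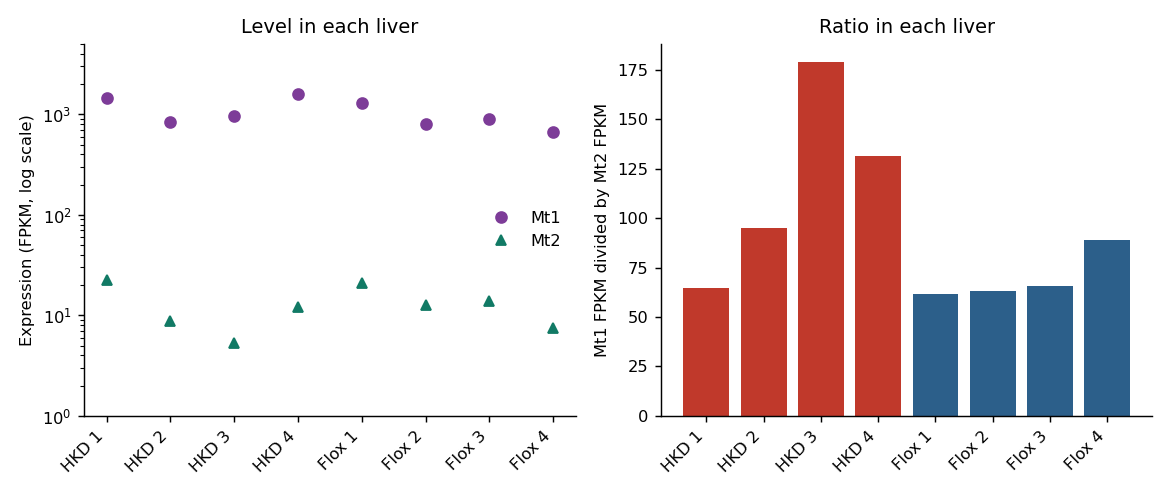
Left, FPKM of Mt1 (circles) and Mt2 (triangles) in each of 8 livers on a log axis; right, Mt1 FPKM divided by Mt2 FPKM in the same livers (red, METTL3-HKD; blue, METTL3-Flox). Mt1 had 61.5 to 179 times the level of Mt2, and the ratio was highest in METTL3-HKD liver 3.

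Mtf1 was the least abundant member in METTL3-HKD livers and varied little. Mtf1 (ENSMUSG00000028890), on the plus strand of chromosome 4 from 124802104 to 124849800, was at 2.46, 2.58, 2.23 and 2.17 FPKM across METTL3-HKD livers 1 to 4 and at 2.13, 1.98, 1.93 and 2.22 FPKM across METTL3-Flox livers 1 to 4. The lowest METTL3-HKD liver was below the highest METTL3-Flox liver, and the other livers kept to their group's side. The group means were 2.36 ± 0.191 and 2.07 ± 0.134 FPKM (SD, n = 4 livers each). The log2 fold change was 0.18 (SE 0.11), or 0.39 when scaled to the reads on genes. Of its 8907 exon bases, 721 (8.09%) are shared with 1110065P20Rik on the opposite strand, which was listed at a mean of 8.02 FPKM.

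Of the 3 importers, Slc39a10 stood apart between the groups. Slc39a10 (ENSMUSG00000025986), whose product ZIP10 brings zinc through the plasma membrane and can pair with that of Slc39a6, lies on the minus strand of chromosome 1 from 46807544 to 46892852. It was at 3.17, 3.16, 2.91 and 3.11 FPKM across METTL3-HKD livers 1 to 4 and at 1.11, 0.965, 1.17 and 1.07 FPKM across METTL3-Flox livers 1 to 4. The groups did not overlap, and the lowest METTL3-HKD liver had 2.49 times the level of the highest METTL3-Flox liver. The group means were 3.09 ± 0.123 and 1.08 ± 0.0846 FPKM (SD, n = 4 livers each), 2.87 times as high in METTL3-HKD livers, with a log2 fold change of 1.44 (SE 0.11). It rested on 95 to 389 reads a liver, and no exon base is shared with another gene. Without METTL3-HKD livers 1 and 3, which held the muscle transcripts, its log2 fold change was 1.46.

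Slc39a14 and Slc39a4 showed no separation of the groups. Slc39a14 (ENSMUSG00000022094), the importer of zinc, iron and manganese that hepatocytes raise in response to interleukin-6, lies on the minus strand of chromosome 14 from 70303469 to 70351425 and was the second most abundant member in both groups. It was at 48.2, 32.1, 35.7 and 43.3 FPKM across METTL3-HKD livers 1 to 4 and at 39.9, 41.5, 38.7 and 36.8 FPKM across METTL3-Flox livers 1 to 4. The METTL3-HKD livers lay on both sides of the METTL3-Flox range. The group means were 39.8 ± 7.29 and 39.2 ± 1.98 FPKM (SD, n = 4 livers each). Its log2 fold change was 0.01 (SE 0.13), it was negative in 5 of 16 alternatives, and it was 0.22 when values were scaled to the reads on genes, a scaling that moved the median of all genes by 0.20. Slc39a4 (ENSMUSG00000063354), the zinc importer known for uptake of dietary zinc in the intestine, lies on the minus strand of chromosome 15 from 76612383 to 76617384. It was at 13.8, 13.7, 18.4 and 17.2 FPKM across METTL3-HKD livers 1 to 4 and at 15.6, 18.8, 17.0 and 22.8 FPKM across METTL3-Flox livers 1 to 4. The groups overlapped, with means of 15.8 ± 2.39 and 18.6 ± 3.09 FPKM (SD, n = 4 each). The log2 fold change was −0.23 (SE 0.15), or −0.02 when scaled to the reads on genes. Of 3 enterocyte markers, Vil1 and Lct were at most 0.084 and 0.0173 FPKM in these livers, and Fabp2 was at 48.7 to 71.2 FPKM with overlapping groups.

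Both exporters had lower means in METTL3-HKD livers, and the groups of both overlapped. Slc30a1 (ENSMUSG00000037434), the zinc exporter of the plasma membrane and an MTF-1 target, lies on the plus strand of chromosome 1 from 191906767 to 191913247. It was at 8.40, 11.0, 10.4 and 8.80 FPKM across METTL3-HKD livers 1 to 4 and at 10.7, 12.2, 15.9 and 13.1 FPKM across METTL3-Flox livers 1 to 4. METTL3-HKD liver 2 was above METTL3-Flox liver 1, and these were the only livers out of order. The group means were 9.66 ± 1.26 and 13.0 ± 2.21 FPKM (SD, n = 4 livers each), 74.5% of the control level, with a log2 fold change of −0.42 (SE 0.14), or −0.20 when scaled to the reads on genes. Slc30a10 (ENSMUSG00000026614), the manganese exporter, lies on the plus strand of the same chromosome from 185454848 to 185468762. It was at 7.82, 7.98, 6.63 and 8.70 FPKM across METTL3-HKD livers 1 to 4 and at 11.3, 6.60, 11.5 and 7.20 FPKM across METTL3-Flox livers 1 to 4. METTL3-Flox livers 1 and 3 were above all METTL3-HKD livers, and livers 2 and 4 were within or below their range. The means were 7.78 ± 0.859 and 9.14 ± 2.60 FPKM (SD, n = 4 each), and the log2 fold change was −0.19 (SE 0.20), or 0.02 when scaled to the reads on genes. In Slc30a1 468 exon bases, and in Slc30a10 533, are shared with genes on the opposite strand that were listed at means of 0.0305 and 0.344 FPKM.

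Ordered by mean FPKM, Mt1 came first and Slc39a14 second in both groups, and the ranges of these neighbours did not overlap. Slc39a4, Mt2, Slc30a1 and Slc30a10 followed, and the range of each over the 4 livers of a group overlapped that of the next. Below them, Slc39a10 stood above Mtf1 in every METTL3-HKD liver, and Mtf1 stood above Slc39a10 in every METTL3-Flox liver. This exchange of the 2 lowest places was the only difference in order between the groups.

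The motif preferred by the m6A writer, searched as GGACT in the longest coding transcript, was counted as a description of sequence, since m6A on single transcripts was not measured in these files. Slc39a10-201 held 3 copies in 5498 bases, or 0.546 per kb, and 20.1% of 13104 genes held fewer per kb. Mt1 held 3 copies in 1085 bases, more per kb than 96.7% of the genes, and Mt2 held 0 in 511 bases. The 1085-base transcript of Mt1 has 114 coding bases, and the printed frame of 186 bases belongs to its transcript of 549 bases. Copies in the 549-base transcript were not counted, so the rank of Mt1 does not describe the transcript with the printed frame. The other 5 members had between 1.02 and 1.71 copies per kb, around and above the median of 1.05 per kb over the 13104 genes.

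The genes of these families outside the chosen 8 were tested. Of 21 other metallothionein and zinc transporter genes, 18 had a mean over 0.1 FPKM, and 3 were higher and 1 lower in METTL3-HKD livers by adjusted p, beside 9.05% and 6.63% of all tested genes. The median log2 fold change of the 18 was 0.05, against −0.00 for all tested genes. In 6 of the 18 the groups did not overlap, with METTL3-HKD higher in all 6, beside 12.7% of tested genes that did so in this direction and 9.95% in the other. The 14 genes that did not pass the test had adjusted p between 0.0876 and 0.926 and log2 fold changes from −0.47 to 1.69, of which the highest was that of Mt4, named after its values were seen, on 0 to 11 reads a liver. Slc39a12, Slc30a2 and Slc30a8 were below the minimum, at no more than 4 reads in any liver.

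**Figure D4:**
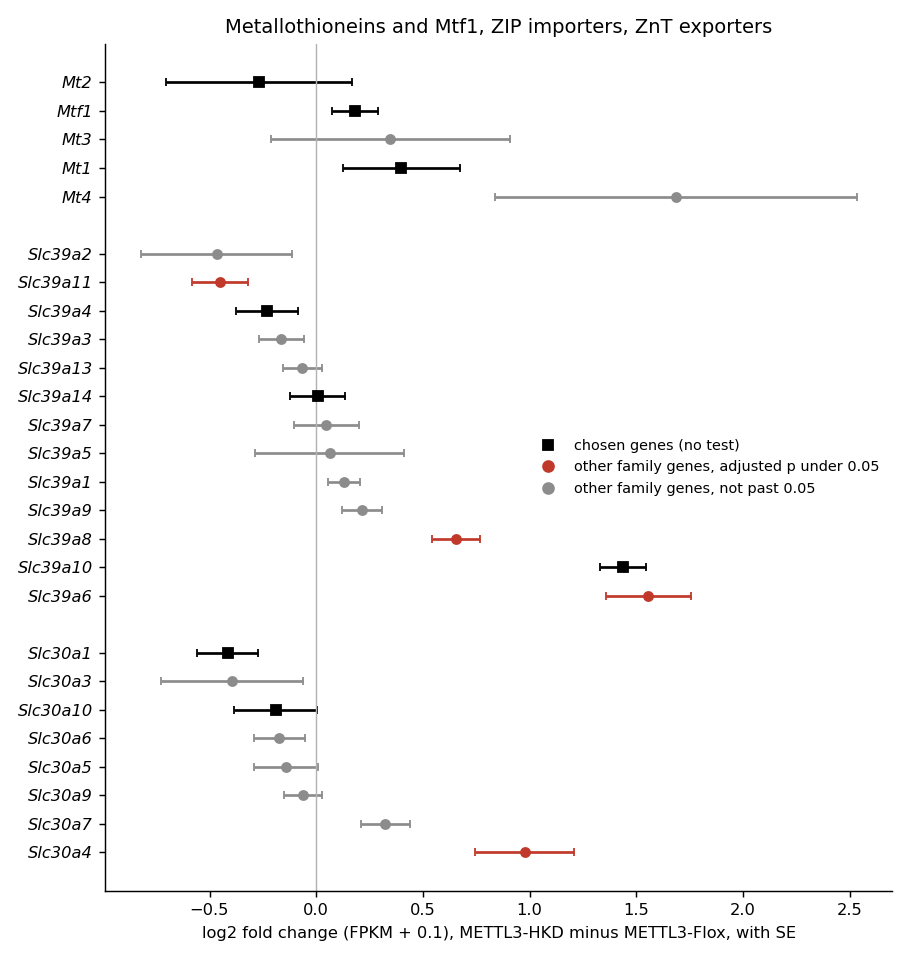
Log2 fold change on the log2(FPKM + 0.1) scale, METTL3-HKD minus METTL3-Flox, with its SE, for the 8 chosen genes (squares) and the 18 other tested family genes (circles; red, adjusted p under 0.05), in blocks of metallothioneins and Mtf1, importers and exporters. Slc39a6 and Slc39a10 lie furthest right among the importers, at 1.56 and 1.44, and Slc30a4 among the exporters, at 0.98.

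Slc39a6, the importer whose product ZIP6 can pair with ZIP10, was higher in METTL3-HKD livers. It was at 3.0, 3.49, 2.16 and 1.88 FPKM across METTL3-HKD livers 1 to 4 and at 0.881, 0.699, 0.807 and 0.839 FPKM across METTL3-Flox livers 1 to 4. Its groups did not overlap, with means of 2.63 ± 0.747 and 0.807 ± 0.0778 FPKM (SD, n = 4 each). The log2 fold change was 1.56 (SE 0.20, adjusted p = 0.00378 from limma), and the adjusted p lay between 0.0032 and 0.0231 over 16 alternatives. Slc39a8, an importer of zinc and manganese that is also induced in inflammation, was at 5.55, 6.39, 5.05 and 4.79 FPKM across METTL3-HKD livers 1 to 4 and at 3.20, 3.62, 3.54 and 3.24 FPKM across METTL3-Flox livers 1 to 4. The groups did not overlap, and the log2 fold change was 0.66 (SE 0.11, adjusted p = 0.00937 from limma; 0.00653 to 0.0497 over the alternatives). The neutrophil markers, which had the same order of groups in all 8 genes, were not taken into account in these tests, and their part in them was not tested.

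Slc30a4, an exporter into vesicles, was at 8.52, 10.5, 4.80 and 5.83 FPKM across METTL3-HKD livers 1 to 4 and at 3.40, 4.24, 3.52 and 3.10 FPKM across METTL3-Flox livers 1 to 4. METTL3-HKD livers 1 and 2 were the highest, and the groups did not overlap. The log2 fold change was 0.98 (SE 0.23, adjusted p = 0.0256 from limma), and the call was lost without METTL3-HKD liver 1 (adjusted p = 0.0708), METTL3-Flox liver 3 (0.0666) or METTL3-Flox liver 4 (0.0648). Slc39a11, an importer of the Golgi and other inner membranes, was at 7.74, 6.65, 7.19 and 9.03 FPKM across METTL3-HKD livers 1 to 4 and at 12.6, 10.2, 10.3 and 8.95 FPKM across METTL3-Flox livers 1 to 4. METTL3-HKD liver 4 was above METTL3-Flox liver 4, so the groups overlapped. The log2 fold change was −0.45 (SE 0.13, adjusted p = 0.0493 from limma), and 13 of 16 alternatives lost the call, with an adjusted p of up to 0.222.

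The genes with the most similar levels were found among 10693 genes of at least 1 FPKM by the mean absolute difference, over the 8 livers, of log2(FPKM + 0.1) after subtraction of each gene's own mean. For Mt1 these were Klf2, Icam1, Yod1, Npdc1 and Hpse, with differences of 0.170 to 0.183, against a mean absolute deviation of 0.380 of Mt1 itself. For Mt2 they were Tifa, Pgam1-ps2, Gadd45g, Alpk1 and Pim3, with differences of 0.172 to 0.274 against 0.541. Mt2 ranked 6260 in likeness to Mt1, and Mt1 ranked 279 in likeness to Mt2. Both ranks rest on the same difference of 0.445, which was above the deviation of Mt1 itself. The ranks depend on how widely each gene varies, so their contrast is not a result. Slc39a14 was most like Helb, Calu, Gramd1a, Slc25a51 and Gnai2 (0.0537 to 0.0747, against its own deviation of 0.135). Slc30a10 was most like Ccdc12, Gfod2, Thoc6, C1galt1c1 and Cdk20 (0.108 to 0.119, against 0.244). The measure was added for Slc39a10 after its values were seen. Its nearest genes were Susd1, Tsr1, Rrp12, Rrp15 and Slc39a6, with differences of 0.135 to 0.181 against its own deviation of 0.719. Tsr1, Rrp12 and Rrp15 are ribosome assembly genes. All livers share the same sequencing table and scaling, and a gene that separates the groups by a similar amount scores as like Slc39a10.

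**Figure D5:**
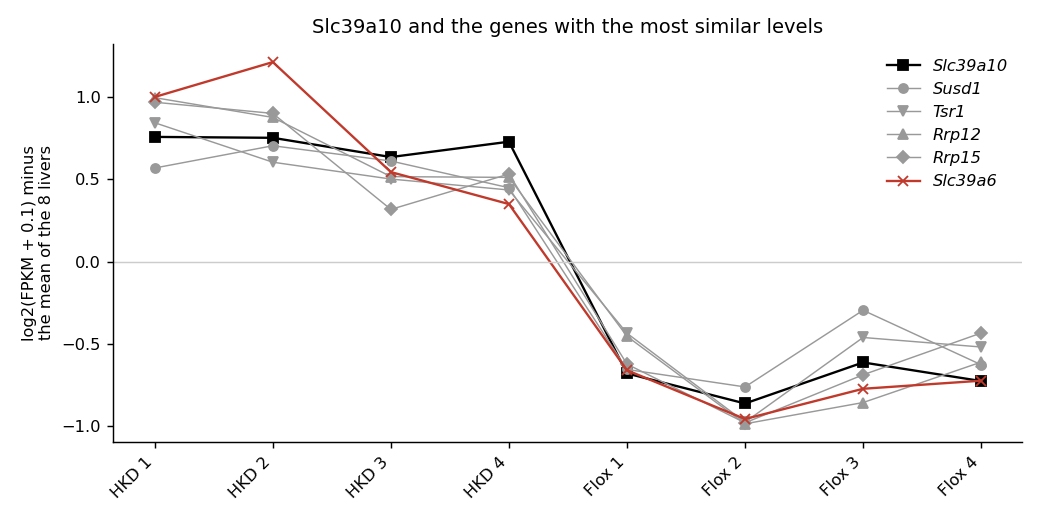
Log2(FPKM + 0.1) minus the mean of the 8 livers, for Slc39a10 (black), Slc39a6 (red) and the other 4 most similar genes (grey), by liver. In each of these 6 genes, the 4 METTL3-HKD livers lie above 0 and the 4 METTL3-Flox livers below it.

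The genes around the metallothioneins, in lists written by function, moved in both directions. These lists, and those of the next paragraph, were chosen with earlier results of these data known, which limits what their counts can show. Their counts are by adjusted p and stand beside 9.05% of all tested genes higher and 6.63% lower. Of 5 other genes reported as MTF-1 targets, 2 were higher and 2 lower. Ndrg1, a stress-responsive gene, was at 4.40 to 10.4 FPKM in METTL3-HKD livers and 1.28 to 3.08 FPKM in METTL3-Flox livers, with a log2 fold change of 1.89 (SE 0.33, adjusted p = 0.0104). Gclc, the catalytic subunit of glutathione synthesis, had a log2 fold change of 1.40 (SE 0.35, adjusted p = 0.0287), and Slc40a1, the iron exporter ferroportin, one of −0.64 (SE 0.14, adjusted p = 0.0188). Selenoh, which encodes a nuclear selenoprotein, had one of −0.70 (SE 0.16, adjusted p = 0.0219). The median of the 5 was 0.16, against −0.00 for all tested genes. Of 9 copper handling genes, 0 were higher and 2 were lower, with a median of −0.18. These were Ccs, the copper chaperone of superoxide dismutase, at −0.61 (SE 0.13, adjusted p = 0.0169), and the copper importer Slc31a1 at −0.44 (SE 0.11, adjusted p = 0.0269). With values scaled to the reads on genes, the copper list had 1 gene higher, 0 lower and a median of 0.02. The MTF-1 list then had 2 higher, 0 lower and a median of 0.37. Without METTL3-HKD livers 1 and 3, both lists had 0 lower genes.

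The other lists hold genes that answer to stimuli known to induce metallothioneins. Their counts stand beside the same 9.05% higher and 6.63% lower of all tested genes. Of 16 acute phase genes, 15 had a negative log2 fold change, and the median of the 16 was −0.61. The other was Socs3, at 1.09 (SE 0.35, adjusted p = 0.0643 from limma), with overlapping groups. Of the 16, 1 passed the test. That was Lbp, the lipopolysaccharide binding protein of plasma, at 34.3 to 51.3 FPKM in METTL3-HKD livers and 53.2 to 78.5 FPKM in METTL3-Flox livers (log2 fold change −0.68, SE 0.17, adjusted p = 0.0302). METTL3-Flox liver 1 had the highest level of its group in 14 of the 16 genes, with a sum of 105406 FPKM against 49143 to 65951 FPKM in the other METTL3-Flox livers and 39954 to 52839 FPKM in METTL3-HKD livers. Without it, 13 of the 16 were negative, the median was −0.44, and 1 gene was higher and 0 were lower by adjusted p from limma. The count of lower genes was also 0 without METTL3-HKD liver 1, 3 or 4 or METTL3-Flox liver 3. When values were scaled to the reads on genes the median was −0.40, with 12 negative. Of 10 glucocorticoid receptor targets, 2 were higher and 1 lower, with a median of −0.24. That median was −0.02 when values were scaled to the reads on genes. Pdk4, a kinase that restrains pyruvate oxidation, had a log2 fold change of 3.13 (SE 0.59, adjusted p = 0.0121), the phosphatase gene Dusp1 one of 1.72 (SE 0.39, adjusted p = 0.0219), and the transcription factor gene Klf9 one of −0.63 (SE 0.09, adjusted p = 0.00443). Of 9 NRF2 targets, 6 were higher and 1 lower, with a median of 0.80. The smallest adjusted p were those of Slc7a11, the cystine importer (3.30, SE 0.44, adjusted p = 0.00412), Srxn1, which repairs peroxiredoxins (2.30, SE 0.32, adjusted p = 0.00451), Hmox1, the haem-degrading enzyme (1.43, SE 0.21, adjusted p = 0.00529), and Gclm, the partner of Gclc (−0.52, SE 0.12, adjusted p = 0.0229). The fitted value of Slc7a11 depends on the pseudocount, since the METTL3-Flox livers held at most 0.0533 FPKM of it. Over all 5 lists, with Gclc, which is in 2 of them, counted once, 9 genes were higher and 7 lower, and the count of lower genes was 1 when values were scaled to the reads on genes and 1 without METTL3-HKD livers 1 and 3.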

How the data were processed

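Livers of 4 METTL3-HKD and 4 METTL3-Flox mice were grouped by the sample titles. The authors deposited FPKM with gene lengths for 54532 genes. The labels name GRCm38 (mm10). The aligner, counter and strand setting are not given in the sources used here. FPKM times length and 1 library size per liver gave whole reads (tolerance 0.05 reads) for 100% of non-zero values. The ratio of library size to reads on genes was 1.17, 1.16, 1.02 and 1.01 in METTL3-HKD livers 1 to 4. It was 0.840, 0.936, 0.958 and 1.01 in METTL3-Flox livers 1 to 4. The deposited values were therefore already scaled between libraries, and the ratios were higher in the METTL3-HKD group. A higher ratio gives lower FPKM for the same share of reads. No source says more on how the livers were replicated, and p-values measure the spread between these livers. The reads limit precision by counting error only.

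The 16645 genes averaging 0.1 FPKM or more were compared on log2(FPKM + 0.1) with limma 3.58.1 (mean-variance trend, two-sided, Benjamini-Hochberg adjustment over all tested genes) in R 4.3.3, with Python 3.11.15 for tables. Fold changes are on that scale and understate changes of low genes. Calls used an adjusted p under 0.05, with or without a log2 fold change of at least 1. The script was tested on simulated data. The 8 genes and all lists were chosen with earlier results of these data known. Named in the text are the 8 genes, other family genes past the adjusted p, up to 4 genes with the smallest adjusted p of each list, the 5 genes most like Mt1, Mt2, Slc39a14 and Slc30a10, and Mettl3. Alb, Hnf4a, Acta1, Spp1, Socs3, the enterocyte markers, Mt4, the untested family genes and the genes most like Slc39a10 were named after their values were seen. The 16 alternatives were a minimum mean of 1 FPKM, no minimum, 1 FPKM as the pseudocount, no trend, scaling to the reads on genes, voom on rebuilt reads, a replicate block, each liver left out, and METTL3-HKD livers 1 and 3 left out, which was added after the data were seen. Sequences came from RefSeq and GENCODE tables of GRCm38.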

Additional observations from a re-analysis of the deposited data

How the results depend on the processing

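Of the 8 chosen genes, Mt1, Mtf1, Slc39a4, Slc39a10 and Slc30a1 kept the sign of their log2 fold change under all 16 alternatives, Mt2 and Slc30a10 under 15, and Slc39a14 under 11. The log2 fold change of Slc39a10 was 0.98 with a pseudocount of 1 FPKM, 1.64 when scaled to the reads on genes, and 1.39 to 1.47 when 1 liver was left out. Among the other family genes, 5 were higher when scaled to the reads on genes, and 2 to 3 when 1 liver was left out. The count of 1 lower family gene became 0 with a pseudocount of 1 FPKM, with no minimum, with no trend, when scaled, under the replicate block, without METTL3-HKD livers 1 and 3, and in all but 1 omission of a single liver (0 to 1). Over the lists by function, 5 to 10 genes were higher and 3 to 7 lower when 1 liver was left out (5 higher without METTL3-HKD liver 2 or METTL3-Flox liver 2, and 3 lower without METTL3-HKD liver 1 or METTL3-Flox liver 3), and 1 was lower when scaled or without METTL3-HKD livers 1 and 3.

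Over all genes, 782 were called upregulated and 253 downregulated, and 1506 were higher and 1104 lower on the adjusted p alone. Upregulated genes numbered 317 with a pseudocount of 1 FPKM, 450 with a minimum of 1 FPKM and 492 to 960 when 1 liver was left out (492 without METTL3-HKD liver 1, 519 without METTL3-Flox liver 3). Downregulated genes numbered 88 with a pseudocount of 1 FPKM, 163 with no minimum, 133 when scaled, 110 without METTL3-HKD livers 1 and 3, and 94 to 341 when 1 liver was left out (94 without METTL3-Flox liver 3, 121 without METTL3-HKD liver 1, 155 and 166 without METTL3-Flox livers 2 and 4). On the adjusted p alone, higher and lower genes numbered 2309 and 374 when scaled, 681 and 264 without METTL3-HKD livers 1 and 3, and 747 to 1659 and 355 to 1148 when 1 liver was left out, with both counts lower by over 1.5 times without METTL3-HKD liver 1 or 2 or METTL3-Flox liver 2, 3 or 4, and 682 were lower with no minimum. Scaling raised the share of upregulated among called genes from 75.6% to 88.7%. The causes were not tested.

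Between same-numbered livers, the deviations of the genes from their group means correlated at −0.08 to 0.07. The best match of METTL3-HKD liver 1 was METTL3-Flox liver 1, and those of METTL3-HKD livers 2, 3 and 4 were METTL3-Flox livers 3, 2 and 2. These values cannot settle whether the replicate numbers pair the livers. With the replicate block, 971 genes were higher and 645 lower, the 3 higher family genes kept their calls, and the log2 fold change of Slc39a10 was 1.44. Low read numbers limit Mt2 (57 reads in its lowest liver) and Mt4, and the strand setting, not given here, limits Mt2 and Mtf1.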
